A study of Mus musculus with 57 samples.

Results

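The 10 genes described here handle iron in the cell or set how readily iron-driven lipid peroxidation kills it. They were chosen by symbol: heme oxygenase 1 (Hmox1), the transferrin receptor (Tfrc), the divalent metal transporter (Slc11a2), the ferritin heavy and light chains (Fth1 and Ftl1), the ferritin cargo receptor (Ncoa4), ferroportin (Slc40a1), hepcidin (Hamp), glutathione peroxidase 4 (Gpx4) and acyl-CoA synthetase 4 (Acsl4). All 10 had a row in both count tables, which held 25416 genes for the acute and 54658 genes for the chronic study. All 10 passed the low-count filter in the acute study, and 9 of the 10 passed it in the chronic study, where Hamp did not.

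Hearts of male C57BL6/J mice were profiled by poly(A) RNA-seq to ask how doxorubicin (Doxo), an anthracycline chemotherapy drug that damages the heart, and nicotinamide mononucleotide (NMN), a precursor of NAD+, changed their transcripts. In the acute study mice bought at 9 weeks of age received vehicle (Ctrl, 14 hearts), a single i.p. dose of 20 mg/kg Doxo (Doxo, 13 hearts), or that dose together with daily i.p. NMN at 180 mg/kg (Doxo-NMN, 13 hearts), and hearts were taken on day 5. In the chronic study mice aged 14 to 16 weeks received vehicle (Ctrl, 5 hearts), 5 i.p. doses of 4 mg/kg Doxo that added up to 20 mg/kg (Doxo, 6 hearts), or the same doses with NMN in the drinking water at 500 mg/kg per day (Doxo-NMN, 6 hearts), and hearts were taken on day 60. NMN was begun 5 days ahead of Doxo in both studies. No group received NMN without Doxo, so an action of NMN on these genes in untreated hearts was not measured. The authors reported lower survival with Doxo alone than with vehicle in both studies. Acute survival with NMN lay between these groups, and the chronic gain with NMN was not significant. Hearts came from mice alive at the end, so survivors may have been selected to different degrees in each group. The part of this selection in the group differences was not tested. Regimen, age, supplier of the mice, sequencing site, time, and the route and dose of NMN differed between the studies together.

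Iron enters most cells bound to transferrin through the transferrin receptor, is reduced and moved out of the endosome by the divalent metal transporter, and is stored in a shell of ferritin heavy and light chains. Ncoa4 carries ferritin to the lysosome for breakdown, heme oxygenase 1 frees iron from heme, and ferroportin, the exporter that hepcidin removes from the membrane, lets iron out. Ferroptosis is a form of cell death in which iron drives the peroxidation of membrane lipids: Acsl4 loads the oxidisable fatty acids into these lipids and Gpx4 reduces the peroxides. Doxo accumulates with iron in heart mitochondria, and ferroptosis is one of the ways in which it is known to injure cardiomyocytes.

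Much of this system is set after transcription, by iron regulatory proteins that bind a short hairpin in the mRNA, the iron-responsive element. In iron-poor cells they block the translation of mRNAs that carry it ahead of the coding sequence and stabilise the Tfrc mRNA, which carries it behind. The element is shown here because the counts below measure mRNA and not protein, and in members that carry it the 2 levels can part. GENCODE transcripts were searched on their own strand for a C, 5 bases of any kind and the letters CAGTGN, with any base but G as the last, and with the 5 bases on each side of the CAGTGN loop able to pair. All protein-coding transcripts of each member were searched, and of the 10 genes, 4 matched. Tfrc held 4 matches in its 3' untranslated region, and Fth1, Ftl1 and Slc40a1 held 1 each in the 5' untranslated region. The capitals mark the unpaired C and the loop of each 30-base stretch:
Tfrc site 1, plus strand, chr16:32631219-32631248: aattatCggaagCAGTGCcttccataatta
Tfrc site 2, plus strand, chr16:32631598-32631627: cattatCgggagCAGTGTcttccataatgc
Tfrc site 3, plus strand, chr16:32631663-32631692: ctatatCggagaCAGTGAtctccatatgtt
Tfrc site 4, plus strand, chr16:32631710-32631739: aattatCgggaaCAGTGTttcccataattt
Fth1, plus strand, chr19:9982732-9982761: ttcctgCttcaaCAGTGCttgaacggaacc
Ftl1, minus strand, chr7:45459778-45459807: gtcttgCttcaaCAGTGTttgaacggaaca
Slc40a1, minus strand, chr1:45925464-45925493: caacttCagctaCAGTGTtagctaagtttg
Coordinates are those of GRCm38. For the background only the longest transcript of each gene was searched, fewer transcripts per gene than for the members. Among the longest transcripts of 21877 protein-coding genes, 0.932% held at least 1 match anywhere, 0.0594% held 1 in the first 250 bases, and only 1 held at least 4. The other 6 members, Slc11a2 among them, held none of these letters in this arrangement. This does not show that they lack an iron-responsive element of another form, and it says nothing of other binding sites.

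Each acute heart had between 32409622 and 52102850 counts, and each chronic heart between 17769886 and 23862287. A count of 3, taken as the smallest detectable value, was worth 0.0550 to 0.105 CPM (counts scaled by TMM-normalised library size) for the acute hearts. For the chronic hearts it was worth 0.124 to 0.172 CPM, and both cover counting error only. The labelled tissue was checked with 5 cardiomyocyte markers, whose sum lay between 25414 and 75713 CPM in every acute heart and between 56064 and 81104 CPM in every chronic heart. The acute hearts differed in atrial tissue: Myl4, an atrial light chain, exceeded 100 CPM in 8 Ctrl, 5 Doxo and 4 Doxo-NMN hearts. Acute Doxo replicate 6 lay within the Ctrl range of every member but Ftl1, which was below it. Chronic Doxo replicate 2 stood apart from its group, and so did chronic Ctrl replicate 1. For some of the results that rest on these hearts, values without them are given as well.

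All levels are CPM. To compare one gene with another, CPM was divided by the length of all exons of the gene in kilobases. On this per-length scale the acute Ctrl hearts were ordered Fth1 (median 321 CPM per kb), Gpx4 (209), Ftl1 (41.5), Tfrc (24.2), Ncoa4 (5.47), Hamp (4.80), Hmox1 (4.67), Slc11a2 (4.66), Acsl4 (2.91) and Slc40a1 (2.58). The ranges of Ftl1 and Tfrc overlapped, as did those of each neighbouring pair from Ncoa4 to Slc11a2 and those of Acsl4 and Slc40a1, so the order within these stretches is not set. Hamp, at 0 to 38.5 CPM per kb, overlapped every member from Ftl1 down, so its place is not set at all. In acute Doxo hearts Hmox1 moved up to the 4th place, with a median of 32.6 CPM per kb, ahead of Tfrc at 12.4, although their ranges overlapped.

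The first question was how these genes differed between Doxo and Ctrl hearts 5 days after a single dose, in the mice that survived. The heme oxygenase and both ferritin chains rose, the transferrin receptor, ferroportin and the ferritin cargo receptor fell, and both ferroptosis genes, Gpx4 and Acsl4, rose. Of the 10 members, 8 passed an adjusted p of 0.05 (edgeR), where 68.1% of 14240 tested genes did, so that share is near the background. Of these, 5 rose, against 34.8% of all genes, and 3 fell, against 33.3%. With a fold change of at least 1.5 as well, 5 members passed (30.1% of all genes), 3 higher and 2 lower, where 14.7% and 15.4% of all genes were. The median log2 fold change of the members was 0.47, beside −0.0016 over all tested genes. Below, hearts outside the range of another group are counted for each member as a description. How often other genes separate the groups as far was not determined.

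**Figure D1:**
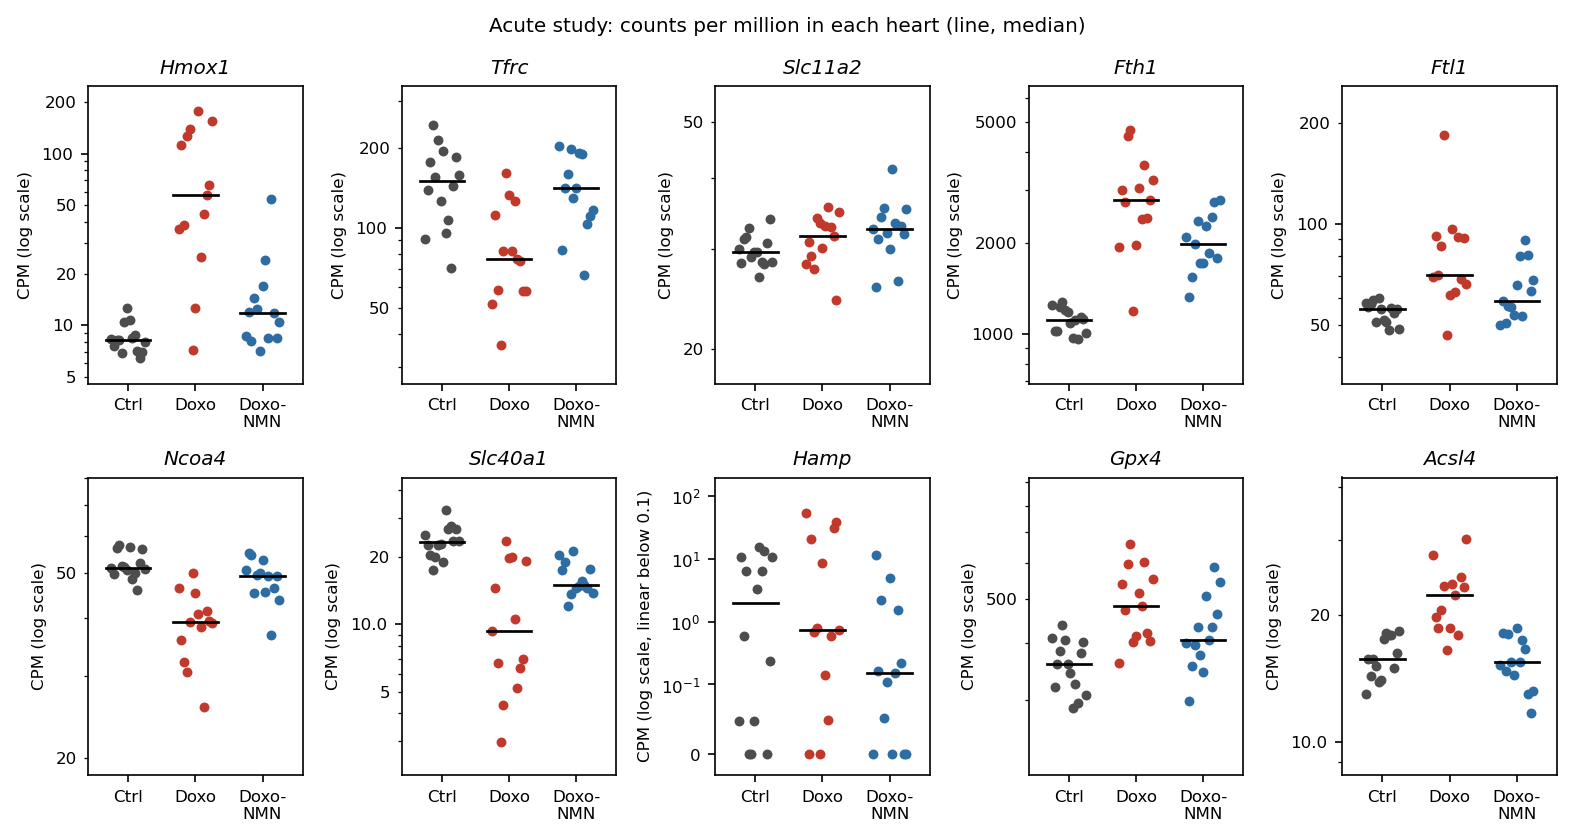
Levels of the 10 genes in CPM (vertical axis, log scale, linear below 0.1 for Hamp) in each acute heart, with Ctrl (14 hearts) in grey, Doxo (13) in red and Doxo-NMN (13) in blue, and the group median as a line. Hmox1 and Fth1 were above every Ctrl heart in 12 of 13 Doxo hearts, Hamp ran from 0 to 53.7 CPM within the Doxo group, and Slc11a2 overlapped in all groups.

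Hmox1 (chr8:75093621-75100589, plus strand), which degrades heme to iron, biliverdin and carbon monoxide, had 6.41 to 12.5 CPM in Ctrl hearts (median 8.18) and 7.15 to 177 CPM in Doxo hearts (median 57.1). Of 13 Doxo hearts, 12 lay above the highest Ctrl heart, and the heart that did not was replicate 6. Hmox1 differed by a log2 fold change of 3.17 ± 0.36 (SE, adjusted p = 1.87e-09), a 9.02-fold rise, and 3.28 without replicate 6.

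Fth1 (chr19:9980598-9985098, plus strand), the ferritin chain that oxidises iron for storage, had 963 to 1277 CPM in Ctrl (median 1115) and 1196 to 4706 CPM in Doxo hearts (median 2771). Here too 12 of 13 Doxo hearts exceeded all Ctrl hearts, and replicate 6 was again the lowest. The log2 fold change was 1.37 ± 0.13 (adjusted p = 1.25e-10), or 2.59-fold. Ftl1 (chr7:45457944-45459884, minus strand), the light chain that seeds the iron core, had 48.1 to 59.95 CPM in Ctrl (median 55.5) and 46.7 to 184 CPM in Doxo hearts (median 70.2). Again 12 Doxo hearts lay above the Ctrl range, and replicate 6 lay below it. Its log2 fold change was 0.61 ± 0.12 (adjusted p = 4.63e-05), which passed the 1.5-fold limit with all hearts but came to 0.45, below it, without Doxo replicate 5, the heart at 184 CPM. The ferritin counts are uncertain to a small degree because near-identical copies exist: the retrogene Ftl1-ps1 matched Ftl1 at 906 of 910 transcript bases, iron-responsive element included, and took a median of 2.30% of the Ftl1 count in acute hearts. Gpx4-ps2, a copy of Gpx4, took a median of 4.37% of its count, and Hamp2, a paralog of Hamp, had 0 to 49 counts.

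Ncoa4 (chr14:32159865-32179855, plus strand) fell by less. It had 45.8 to 57.2 CPM in Ctrl (median 51.2) and 25.7 to 49.8 CPM in Doxo hearts (median 39.2), and 11 of 13 Doxo hearts were below every Ctrl heart. This was a log2 fold change of −0.43 ± 0.07 (adjusted p = 1.33e-06). The mRNA of the receptor that delivers ferritin to the lysosome was thus lower in the group in which ferritin mRNA was higher.

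Among the carriers of iron across membranes, Tfrc (chr16:32608920-32632794, plus strand) had 70.8 to 244 CPM in Ctrl hearts (median 150) and 36.6 to 161 CPM in Doxo hearts (median 76.6). The groups overlapped widely, with 5 Doxo hearts below the Ctrl range and 5 Ctrl hearts above the Doxo range. The log2 fold change was −0.81 ± 0.20 (adjusted p = 4.73e-04). Slc40a1 (chr1:45908068-45926523, minus strand), the only known cellular iron exporter, had 17.6 to 32.4 CPM in Ctrl (median 23.2) and 2.97 to 23.7 CPM in Doxo hearts (median 9.34). Below all Ctrl hearts were 9 of 13 Doxo hearts, replicate 6 being the highest of the Doxo group, and the log2 fold change was −1.03 ± 0.21 (adjusted p = 3.94e-05). Slc11a2 (chr15:100387898-100425072, minus strand), the endosomal exit for iron, had 26.8 to 33.8 CPM in Ctrl (median 29.6) and 24.4 to 35.6 CPM in Doxo hearts (median 31.6). Its log2 fold change was 0.06, with a 95% interval of −0.05 to 0.18 (adjusted p = 0.334).

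Gpx4 (chr10:80047166-80056439, plus strand), which reduces lipid peroxides and is the main brake on ferroptosis, had 288 to 437 CPM in Ctrl (median 360) and 362 to 659 CPM in Doxo hearts (median 482), with 8 Doxo hearts above the Ctrl range. The fitted log2 fold change was 0.46 ± 0.09 (adjusted p = 4.05e-05). Acsl4 (chrX:142317993-142390535, minus strand), whose product makes membranes prone to peroxidation, had 13 to 18.3 CPM in Ctrl (median 15.7) and 16.5 to 30.1 CPM in Doxo hearts (median 22.2), with 11 Doxo hearts above the Ctrl range. The log2 fold change was 0.47 ± 0.08 (adjusted p = 2.87e-06). The gene that restrains ferroptosis and the gene that favours it rose 1.38-fold and 1.39-fold, neither reaching 1.5-fold.

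Hamp (chr7:30942368-30944032, minus strand), the hepcidin gene, is best known from the liver, and the heart makes its own. Its range was 0 to 15.8 CPM in Ctrl hearts (median 1.97), 0 to 53.7 CPM with Doxo (median 0.731) and 0 to 11.5 CPM with Doxo and NMN (median 0.152). In 5 Ctrl, 3 Doxo and 5 Doxo-NMN hearts it was at or under 3 counts. Hamp followed the atrial tissue in the sample: where Myl4 exceeded 100 CPM the median of Hamp was 8.66 CPM (Ctrl), 31.4 CPM (Doxo) and 3.63 CPM (Doxo-NMN), and in the other hearts it was 0.0235, 0.365 and 0.0515 CPM. Over all hearts the log2 fold change of Doxo vs. Ctrl was 1.32 ± 0.98 (adjusted p = 0.232). Within the hearts rich in atrial marker it was 1.88 ± 0.60 (adjusted p = 0.0116, 5 Doxo and 8 Ctrl hearts). The 5 hepatocyte markers summed to at most 25.8 CPM in any acute heart, most of it Cyp2e1, and albumin did not exceed 0.673 CPM. The heart at 25.8 CPM was Doxo replicate 1, which was also the highest for Hamp. The hepatocyte sum was 3.28 to 9.85 CPM in Ctrl hearts with Myl4 above 100 CPM and 0.166 to 0.728 CPM in the other Ctrl hearts. For Doxo hearts the sum was 6.96 to 25.8 against 0.449 to 4.02 CPM. In Doxo-NMN hearts the 2 ranges overlapped, at 4.18 to 18.7 against 0.571 to 5.98 CPM. Of the 2 hepatocyte markers that could be tested, 1 was higher in Doxo vs. Ctrl and 1 was lower in Doxo-NMN vs. Doxo, and their part in the level of Hamp was not tested.

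**Figure D2:**
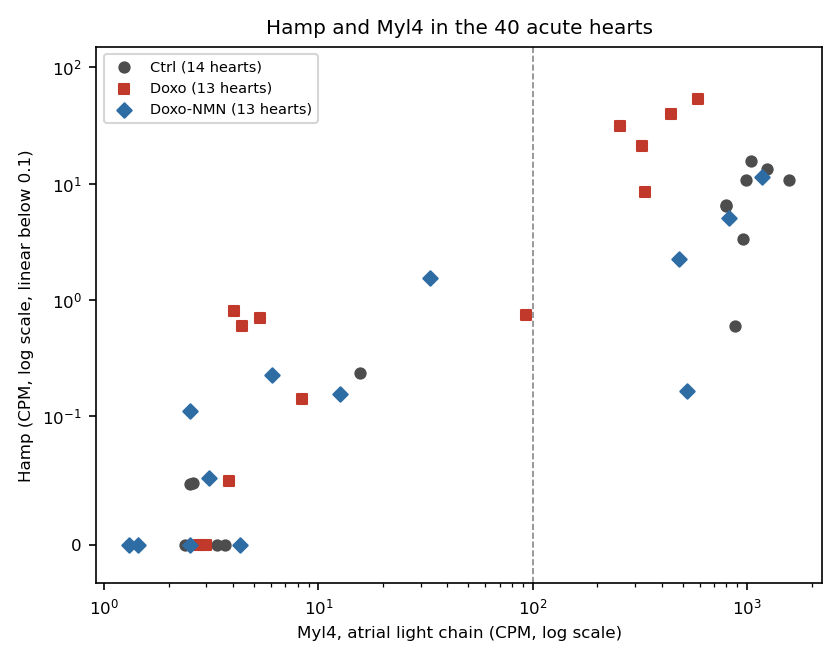
Hamp (vertical axis, CPM, log scale that is linear below 0.1) against the atrial light chain Myl4 (horizontal axis, CPM, log scale) in the 40 acute hearts, 1 point per heart, with the dashed line at 100 CPM of Myl4. Most of the signal of Hamp was in hearts to the right of the line, where the 5 Doxo hearts ran from 8.53 to 53.7 CPM and the 8 Ctrl hearts from 0.592 to 15.8 CPM.

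The markers of other cells moved in the same hearts. All 7 red blood cell markers fell in Doxo vs. Ctrl, and their summed level had a median of 1116 CPM in Ctrl (range 439 to 4319), 2.39 CPM in Doxo (range 1.25 to 339) and 1.42 CPM in Doxo-NMN hearts (range 0.209 to 2.81). The 339 CPM was that of Doxo replicate 6, and the next highest Doxo heart had 3.85 CPM. Slc4a1, the anion exchanger of the red cell membrane, was at 0 in 8 of the 13 Doxo hearts. Tfrc, Slc40a1 and Slc11a2 are also used by red cell precursors, and the part of red cells in their levels was not tested. In Doxo-NMN vs. Ctrl hearts, where all 7 red cell markers were also lower, the medians were 142 against 150 CPM for Tfrc, 14.9 against 23.2 CPM for Slc40a1 and 32.6 against 29.6 CPM for Slc11a2. All 5 neutrophil markers rose, with sums of 1.70 to 5.14 CPM in Ctrl and 3.14 to 263 CPM in Doxo hearts. The 7 macrophage markers, from cells that hold much ferroportin and heme oxygenase, had sums of 235 to 348 CPM (Ctrl), 114 to 344 CPM (Doxo) and 189 to 355 CPM (Doxo-NMN), with 1 of them higher and 3 lower in Doxo vs. Ctrl. Of 5 cardiomyocyte markers, 1 rose and 4 fell. Their part in the members' changes was not tested, and in whole hearts fewer cells of a type cannot be told apart from less RNA per cell.

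The next question was how hearts of surviving mice given NMN with Doxo compared with those of surviving mice given Doxo alone. Survival differed between these groups, and its part in the differences below was not tested. Hmox1, both ferritin chains, Acsl4 and Hamp were lower with NMN, and Tfrc, Ncoa4 and Slc40a1 were higher. Of the 10 members, 8 passed an adjusted p of 0.05, where 53% of all tested genes did, and 3 of them also reached 1.5-fold, where 17.1% did: Tfrc was higher (8.17% of all genes), and Hmox1 and Hamp were lower (8.88%). Of the 8, 5 were lower (27.4% of all genes) and 3 were higher (25.7%). The Doxo hearts serve in this comparison and in Doxo vs. Ctrl, so opposite signs in the 2 comparisons are not independent of each other. Cell markers moved in this comparison too: 5 of 7 red cell and 3 of 5 neutrophil markers were lower, 3 of 7 macrophage markers were higher, and of 5 cardiomyocyte markers 4 were higher and 1 was lower. The part of these markers in the members' changes was not tested. Of the Doxo hearts only replicate 6 had a red cell sum above 3.85 CPM, at 339 CPM, and the red cell calls were not tested without that heart.

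Hmox1 had 7.11 to 54.3 CPM in Doxo-NMN hearts (median 11.7), and 7 Doxo hearts lay above all of them. The log2 fold change of Doxo-NMN vs. Doxo was −2.33 ± 0.36 (adjusted p = 3.13e-06). Fth1 had 1331 to 2779 CPM (median 1982) with a log2 fold change of −0.49 ± 0.13 (adjusted p = 0.00230), and Ftl1 had 49.8 to 89.2 CPM (median 58.6) with −0.39 ± 0.13 (adjusted p = 0.00900). For Fth1 all Doxo-NMN hearts lay within the range of the Doxo hearts, and likewise for Ftl1. The Ftl1 difference came to −0.24 (adjusted p = 0.0351) at the least when 1 heart was left out, and the call was lost in hearts of low atrial marker (−0.45, adjusted p = 0.0556, edgeR).

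Tfrc had 66.9 to 203 CPM with NMN (median 142), against a Doxo median of 76.6, and rose by a log2 fold change of 0.72 ± 0.20 (adjusted p = 0.00284). There were 4 Doxo-NMN hearts above every Doxo heart, and in hearts rich in atrial marker the call was lost (0.79, adjusted p = 0.0522). Ncoa4 had 36.7 to 55.1 CPM (median 49.2) and a log2 fold change of 0.32 ± 0.07 (adjusted p = 2.68e-04). Slc40a1 had 12.1 to 21.2 CPM (median 14.9), all inside the Doxo range, with a log2 fold change of 0.48 ± 0.21 (adjusted p = 0.0492). That value lay at the threshold, and the call was lost in 30 of 40 fits that left out 1 heart and under 6 of 11 other settings. Without Doxo replicate 6, the highest Doxo heart for Slc40a1, the log2 fold change was 0.62 and the call held.

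Acsl4 had 11.7 to 18.6 CPM with NMN (median 15.5) and 11 of 13 Doxo hearts were above all of them. Acsl4 differed by a log2 fold change of −0.51 ± 0.08 (adjusted p = 6.20e-06). Gpx4 had 299 to 587 CPM (median 406), with a log2 fold change of −0.21 ± 0.09 (adjusted p = 0.0593), just short of the threshold. Gpx4 passed it with DESeq2, with limma voom, in hearts rich in atrial marker (adjusted p = 0.0385, edgeR) and in 8 of 40 fits that left out 1 heart. The fit without Doxo replicate 6 was 1 of these 8 fits. Slc11a2 had 25.7 to 41.4 CPM (median 32.6) and a log2 fold change of 0.06 ± 0.06 (adjusted p = 0.414). Hamp had a log2 fold change of −2.91 ± 1.08 (adjusted p = 0.0216), and −2.74 (adjusted p = 0.0116) within the hearts rich in atrial marker, but the call was lost without Doxo replicate 1, the heart at 53.7 CPM, with −2.42 (adjusted p = 0.0544), and with limma voom (adjusted p = 0.123).

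Set against Ctrl hearts, Doxo-NMN hearts still had more Fth1. All 13 were above all 14 Ctrl hearts, but the share of all genes whose groups were apart in this way was not determined. The log2 fold change of Fth1 was 0.88 ± 0.13 (adjusted p = 8.88e-06). Of the 10 members 3 passed an adjusted p of 0.05, where 26% of all genes did, 2 higher (15% of all genes) and 1 lower (11.1%). Fth1 alone among the members also passed 1.5-fold, as 7.11% of all genes did, 3.31% higher and 3.79% lower. Gpx4 was higher by 0.25 ± 0.09 (adjusted p = 0.0404) and Slc40a1 lower by a log2 fold change of −0.55 ± 0.21 (adjusted p = 0.0432). Both lay near the threshold, and their calls were lost in 13 and 17 of the 40 fits that left out 1 heart. Hmox1 had a log2 fold change of 0.84 ± 0.34 (adjusted p = 0.0629). The intervals of the other 6 members held 0 or, for Slc11a2, began at 0.00451, with an adjusted p of 0.116. For Tfrc the 95% interval ran from −0.49 to 0.31 on the log2 scale and for Acsl4 from −0.20 to 0.13.

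**Figure D3:**
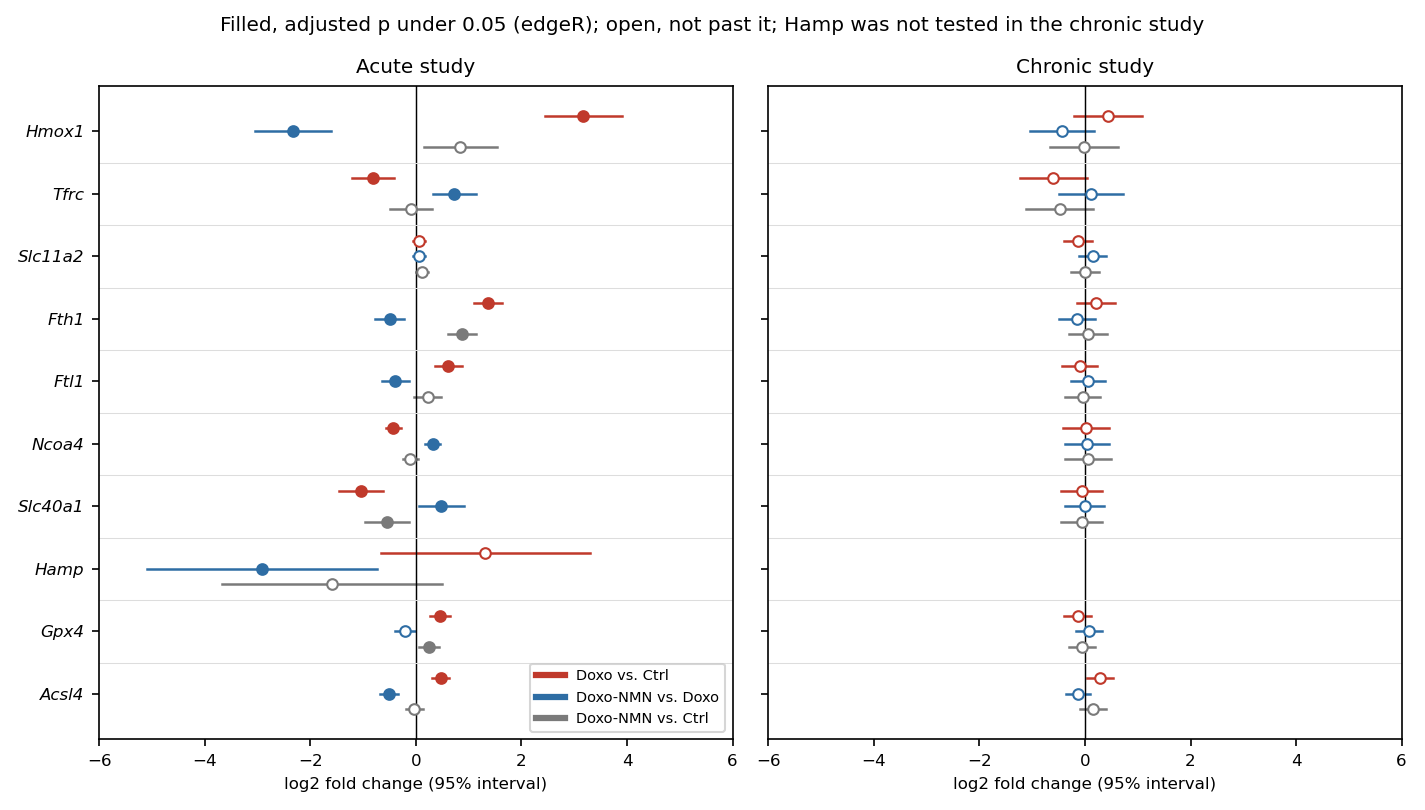
Log2 fold changes (horizontal axis) of the 10 genes with 95% intervals in the 3 comparisons of the acute (left) and chronic (right) study, filled where the adjusted p was under 0.05. In the acute study Doxo vs. Ctrl ran from −1.03 for Slc40a1 to 3.17 for Hmox1, and in the chronic study no filled point appears.

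The third question was whether the members differed on day 60 of the regimen of repeated, smaller doses. Of the 9 tested members 0 passed in any of the 3 chronic comparisons by edgeR, and 0 did by DESeq2 or by limma with voom. At an unadjusted p under 0.05, 1 member differed in Doxo vs. Ctrl, where 7.85% of all genes did. With NMN 0 members did, either against Doxo, where 2.95% of all genes did, or against Ctrl, where 4.73% did. The background was low as well: 0.0602% of 14960 genes were called in Doxo vs. Ctrl, 0 in Doxo-NMN vs. Doxo, and 0.0401% in Doxo-NMN vs. Ctrl. The member with the unadjusted p under 0.05 was Acsl4, which had 7.55 to 9.64 CPM in Ctrl and 9.44 to 11 CPM in Doxo hearts and a log2 fold change of 0.29 ± 0.12 (p = 0.0228, adjusted p = 0.584).

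In the chronic Ctrl hearts Hmox1 measured 6.32, 6.25, 6.26, 6.06 and 6.28 CPM in replicates 1 to 5. The Doxo hearts measured 5.12, 22.3, 5.01, 6.42, 5.85 and 6.04 CPM, so that replicate 2 alone was high. That heart also had the highest Fth1 (2756 CPM, next 1385), the highest Ftl1 (121 CPM) and Gpx4 (595 CPM) and the lowest Tfrc (8.16 CPM, next 21.4) of its group, and its red blood cell markers summed to 16.2 CPM, where the 5 others had 183 to 356. Without it the log2 fold change of Hmox1 went from 0.43 to −0.13 and that of Fth1 from 0.21 to −0.025.

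In chronic Ctrl hearts Tfrc measured 30, 64.2, 47.8, 43.3 and 40 CPM. The Doxo hearts measured 47.8, 8.16, 45.2, 21.4, 27.5 and 28.8 CPM, and the range with NMN was 21.4 to 41.2 CPM. The Doxo vs. Ctrl log2 fold change of Tfrc was −0.60 and had a 95% interval of −1.23 to 0.03 (adjusted p = 0.657), which takes in the acute value. Without Doxo replicate 2 it was −0.40. Slc40a1 measured 8.66, 20.9, 19.7, 18.5 and 19.7 CPM in Ctrl and 14.9 to 19.9 CPM in Doxo hearts, with a 95% interval of the log2 fold change from −0.45 to 0.33. Ctrl replicate 1 was the heart at 8.66 CPM, and it also had the lowest Ncoa4 (8.50 CPM) and the highest Ftl1 (133 CPM) of its group. Fth1 had medians of 1360, 1362 and 1354 CPM in chronic Ctrl, Doxo and Doxo-NMN hearts, and Gpx4 medians of 537, 472 and 502 CPM. Hamp was close to the detection limit: 12 of 17 chronic hearts had no count and the highest, Doxo-NMN replicate 4, had 16 counts, 0.739 CPM.

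**Figure D4:**
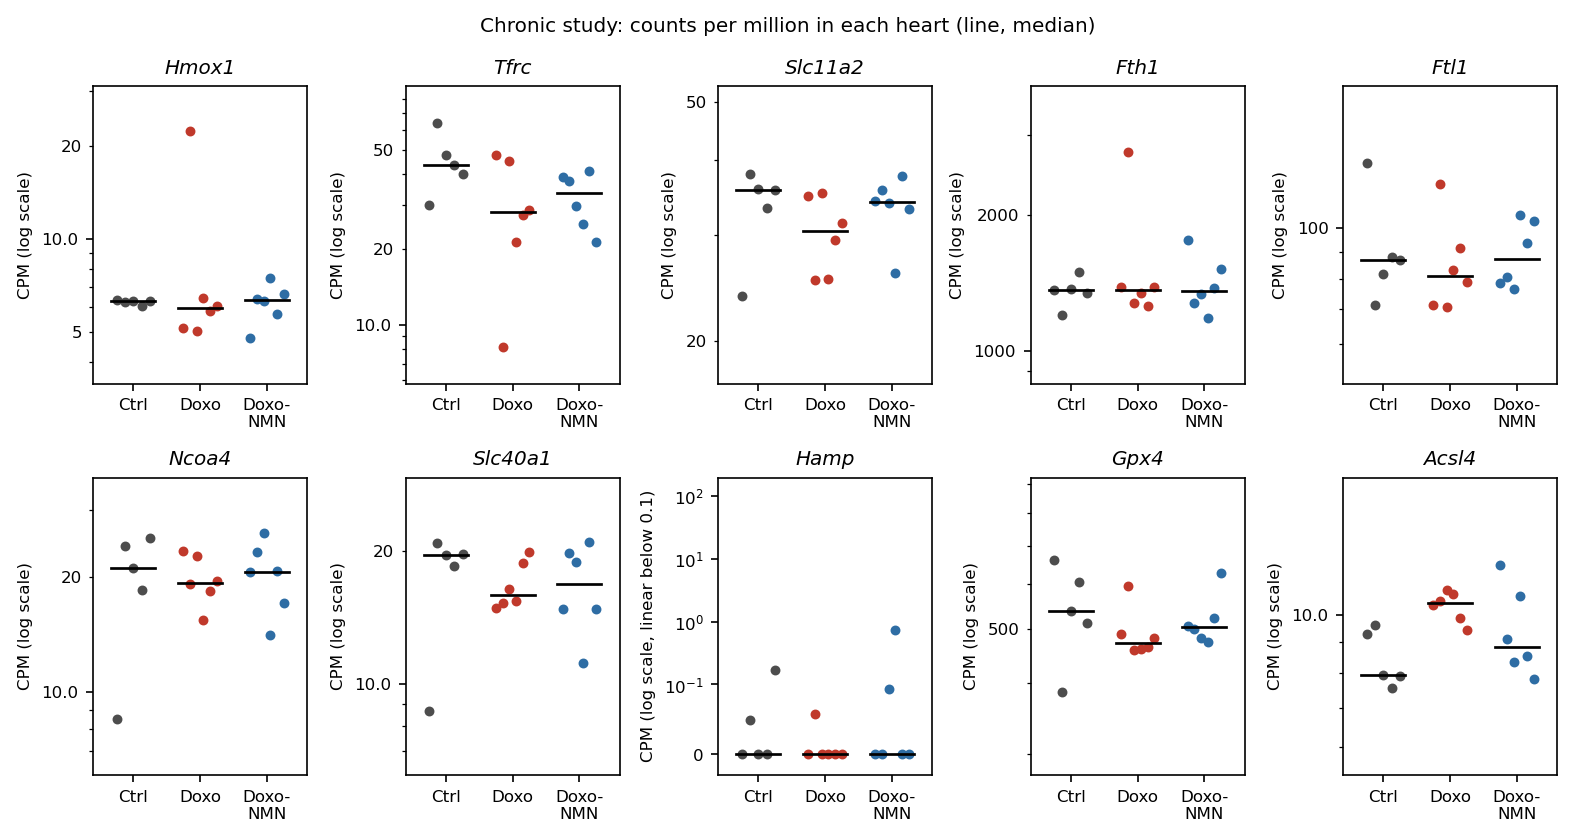
Levels of the 10 genes in CPM (vertical axis, log scale, linear below 0.1 for Hamp) in each chronic heart, with Ctrl (5 hearts) in grey, Doxo (6) in red and Doxo-NMN (6) in blue, and the group median as a line. Doxo replicate 2 is the single high point of Hmox1 (22.3 CPM) and Fth1 (2756 CPM) and the low point of Tfrc (8.16 CPM).

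Whether the response to Doxo differed between the studies was tested directly, as the difference of the 2 log2 fold changes in 1 fit over all 57 hearts. At an adjusted p under 0.05, 5 members differed, where 23.6% of 15152 genes did. The acute response was the larger by 2.74 ± 0.61 for Hmox1 (adjusted p = 0.00171), 1.16 ± 0.24 for Fth1 (adjusted p = 0.00112), 0.71 ± 0.22 for Ftl1 (adjusted p = 0.0190) and 0.59 ± 0.17 for Gpx4 (adjusted p = 0.0107) on the log2 scale. For Slc40a1 the difference was −0.97 ± 0.36 (adjusted p = 0.0424). The Ftl1 and Slc40a1 calls were lost without chronic Ctrl replicate 1 (edgeR, adjusted p = 0.0828 and 0.111), and that of Slc40a1 in 8 of 18 fits that left out 1 heart. These 18 fits left out each chronic heart or acute Doxo replicate 6, and no other acute heart was left out. For Tfrc the difference was −0.21, with a 95% interval of −0.98 to 0.56 (−0.41 without chronic Doxo replicate 2), and for Acsl4 0.18, with −0.11 to 0.47, so neither gene was shown to respond differently. For Doxo-NMN vs. Doxo only Hmox1 differed, by −1.89 ± 0.59 (adjusted p = 0.0435), where 6.09% of all genes did, and this call was lost in 11 of the 18 fits that left out 1 heart.

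Other genes of iron, heme and ferroptosis were grouped by pathway into 7 lists, whose counts in acute Doxo vs. Ctrl stand beside 34.8% of all genes higher and 33.3% lower. The lists were chosen with earlier results of these data known, so their counts are a description. Of the ferroptosis defence list, the authors had already reported Gclc, Gclm, Txnrd1 and Nqo1 as changed in the acute hearts. In the acute comparison of Doxo with Ctrl hearts, 12 of 13 ferroptosis defence genes rose and 1 fell, with a median log2 fold change of 0.82 against −0.0016 over all genes. Slc3a2, a chain of the cystine importer, rose by 1.41 ± 0.14 (adjusted p = 1.48e-10), from a median of 38 to 102 CPM. Nqo1, a quinone reductase, rose by 2.68 ± 0.27 (adjusted p = 2.68e-10), from a median of 36.6 to 213 CPM. Dhodh, which reduces mitochondrial ubiquinone, was the gene that fell, by 0.61 ± 0.10 on the log2 scale (adjusted p = 8.78e-07). Of these 13, 11 were lower in Doxo-NMN vs. Doxo and 1 was higher, where 27.4% and 25.7% of all genes were, and 4 were still higher than in Ctrl hearts, where 15% of all genes were.

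The 13 tested genes that promote or mark ferroptosis were mixed, with 4 higher and 3 lower, under the share of all genes each way, and a median of 0.10. Sat1, a polyamine acetylase, rose by 1.56 ± 0.21 and Por, the cytochrome P450 reductase, by 1.06 ± 0.12. Alox5, a lipoxygenase of white blood cells, and Trp53 had log2 fold changes of −0.92 ± 0.14 and −0.34 ± 0.10, both lower. Among 15 tested genes of iron uptake, oxidation and transport, 5 rose and 3 fell, no more than the share of all genes. Ceruloplasmin (Cp), the ferroxidase that works with ferroportin, rose by 1.53 ± 0.15, from a median of 118 to 324 CPM. The mitochondrial iron importers went opposite ways, Slc25a28 up by 1.13 ± 0.13 and Slc25a37 down, with a log2 fold change of −0.42 ± 0.07. Steap3, which reduces endosomal iron, had −0.85 ± 0.11 and fell with Tfrc.

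Heme synthesis had 2 genes higher and 5 lower of 8, where 34.8% and 33.3% of all genes were, with a median of −0.31. Cpox, an enzyme of its late steps, fell from a median of 56 to 23 CPM (−1.03 ± 0.16, adjusted p = 4.34e-07) and Uros from 26.6 to 14.4 CPM (−0.77 ± 0.10), while Ppox and Fech rose by 0.13 and 0.15. The enzymes of heme synthesis are abundant in red cell precursors, whose markers fell in the same hearts, and the part of these cells was not tested. In Doxo-NMN hearts Cpox had a median of 51 and Uros of 24.3 CPM, and none of the 8 genes passed an adjusted p of 0.05 against Ctrl (edgeR, 0 also at an unadjusted p of 0.05). Of 12 tested iron-sulfur cluster genes, 2 were higher and 5 lower, where 34.8% and 33.3% of all genes were, with Iscu, the assembly scaffold, up by 0.75 ± 0.09.

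Of 7 tested iron regulation genes, 2 rose and 2 fell, under the share of all genes each way. Hjv, a coreceptor that drives Hamp in the liver, fell from a median of 250 to 133 CPM (−0.81 ± 0.15, adjusted p = 1.50e-05), and Aco1, an iron regulatory protein, had −0.15 ± 0.05. Hfe and Fbxl5, which marks the iron regulatory protein Ireb2 for breakdown, rose by 0.53 ± 0.11 and 0.19 ± 0.05. Of 10 tested genes of heme breakdown and transport, 2 rose and 3 fell, again under the share of all genes: the heme exporter Flvcr1 and Bach1, a repressor of Hmox1, rose by 0.79 ± 0.12 and 0.53 ± 0.08, and Flvcr2 and Slc48a1 had −0.84 ± 0.18 and −0.12 ± 0.05. In the chronic comparisons 0 genes of the 7 lists passed (edgeR). At an unadjusted p under 0.05, 5 of 15 genes of iron uptake, oxidation and transport and 3 of 13 that promote or mark ferroptosis differed in chronic Doxo vs. Ctrl, where 7.85% of all genes did, and at most 2 of any other list.

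**Figure D5:**
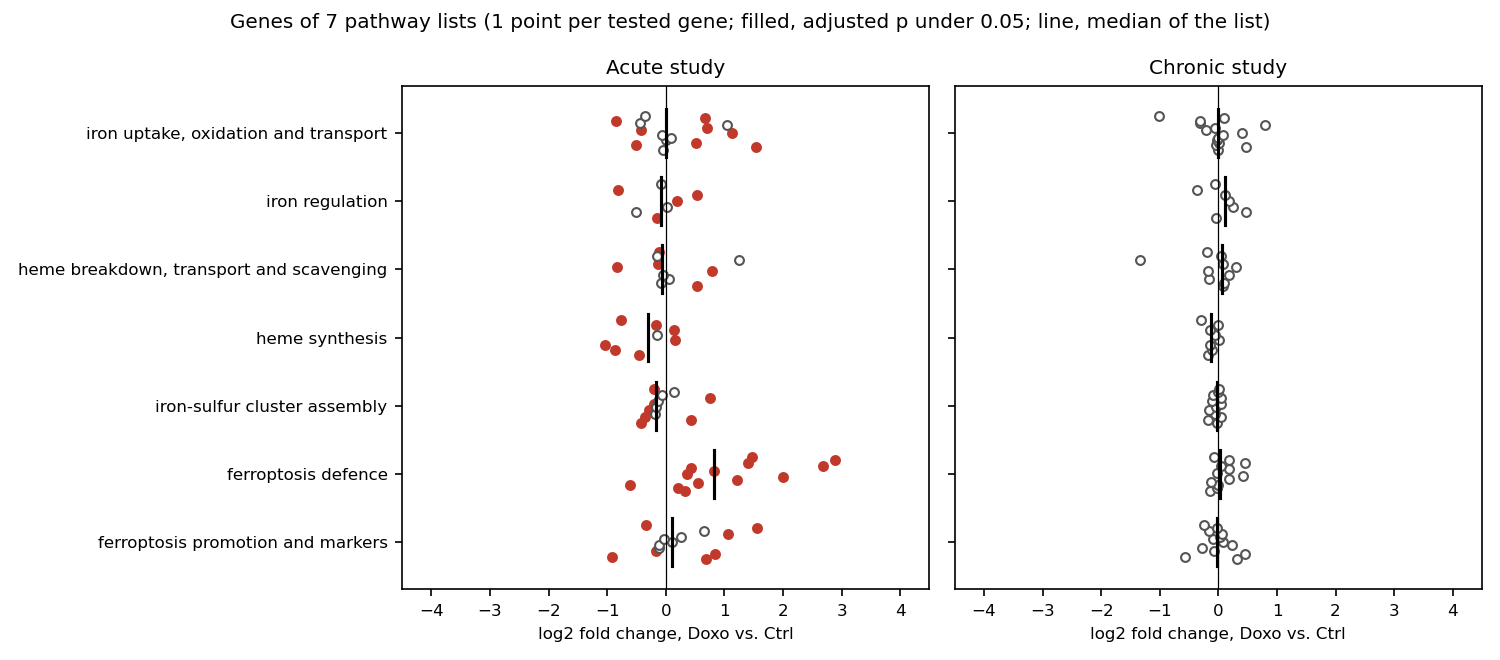
Log2 fold changes of Doxo vs. Ctrl (horizontal axis) for the tested genes of 7 lists in the acute (left) and chronic (right) study, 1 point per gene, filled where the adjusted p was under 0.05, with the median of each list as a line. The ferroptosis defence list stands to the right in the acute study, with a median of 0.82, and no point is filled in the chronic study. The lists were chosen with earlier results of these data known.

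The acute Doxo hearts differed widely among themselves, and the members were compared pair by pair across these 13 hearts, leaving out Hamp because it splits by atrial content. Of 36 pairs, 3 passed an adjusted p of 0.05 (Pearson's r of log2 CPM, two-sided permutation test with 100000 resamples, adjusted over the 36 pairs). Fth1 went with Gpx4 (r = 0.84, adjusted permutation p = 0.00540; Spearman's rho = 0.91, adjusted permutation p = 0.00216), with Hmox1 (r = 0.83, adjusted permutation p = 0.00594; rho = 0.82, adjusted permutation p = 0.0194) and with Ftl1 (r = 0.80, adjusted permutation p = 0.0233; rho = 0.74, adjusted permutation p = 0.0452). Without the 2 hearts farthest from the median of the first gene, r was 0.88 for Fth1 and Gpx4, 0.64 for Hmox1 and Fth1 and 0.62 for Fth1 and Ftl1. Without replicate 6 only Fth1 and Gpx4 still passed (r = 0.91, adjusted permutation p = 0.00180). The lowest of the 36 was Fth1 with Ncoa4 (r = −0.70, adjusted permutation p = 0.0512). How often pairs of other genes go together as closely in these hearts was not determined. Fth1 and Gpx4 were both highest in Doxo replicates 4, 5 and 10, which had the lowest TMM factors of the group (0.786, 0.853 and 0.832). The part of scaling, atrial content or cell makeup in each r was not tested.

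Over all 40 acute hearts, with the group means removed, the genes closest to each member among 14240 were named by Pearson's r as a description. Hmox1 was closest to Gclm (r = 0.90), Tbce and Cd63, and Ftl1 to Gclc (r = 0.85), Ralgps1 and P4hb, where Gclm and Gclc are the subunits of the enzyme that starts glutathione synthesis. Fth1 was closest to Des (r = 0.94), Eef2 and Gstm1, and Gpx4 to Ctsd (r = 0.96), to its own processed copy Gpx4-ps2 (r = 0.95), which shares its sequence and may take some of its reads, and to Capzb. Tfrc was closest to Mtif2 (r = 0.80), Mrpl45 and Qrsl1. Slc40a1 was closest to Heatr5b (r = 0.91), Nipal3 and Ptpn3, Slc11a2 to Mtfr1l (r = 0.85), Mtx2 and Hspbp1, and Ncoa4 to Ssc5d (r = 0.85), Zim1 and Mrc2. Acsl4 was closest to Micu3 (r = 0.77), Gsdme and Cyp1b1, and Hamp to Cpne5 (r = 0.94). All these genes were measured in the same libraries, so shared depth, atrial content or cell makeup can enter each r.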

How the data were processed

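Poly(A) RNA of mouse hearts was sequenced as single-end reads at 2 sites, 1 for each study. The deposited tables hold raw counts per gene that the authors made with STAR (version 2.7.3a in the submitters' processing notes) and featureCounts (version 2.0.0) on mm10. Counts between 1 and 20 were even for a median of 73.6% of genes in acute and 40.3% in chronic hearts, for a reason not given in the sources used here, and halving the acute counts was an alternative.

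Genes were kept by edgeR's filterByExpr by group, libraries were scaled by TMM, and each study's 3 groups were fitted together with edgeR (version 4.0.16) in R (version 4.3.3) by the quasi-likelihood F-test, with Benjamini-Hochberg adjustment over all tested genes. A gene was called at an adjusted p under 0.05 and, for the second acute rule, at least 1.5-fold. Fold changes are log2 values ± SE. The studies were compared by the difference of their log2 fold changes in 1 fit of 6 groups. CPM is the count scaled by the TMM-normalised library size, with a prior count of 2 on the log scale. Alternatives used DESeq2 (version 1.42.0), limma (version 3.58.1), other scalings and filters, hearts of high or low atrial marker, the replicate block and, within each study, each heart left out. Between the studies only chronic hearts and acute Doxo replicate 6 were left out. Chosen after seeing the data were the fits between studies without single hearts and the 3 alternatives for pairs of members.

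The 10 members, the pathway lists and the marker lists were chosen with earlier results of these data known. Of each pathway list the text names at most 4 genes, 2 higher and 2 lower by adjusted p in acute Doxo vs. Ctrl. Replicate numbers were not treated as pairs in the main fits. Of same-numbered hearts of different groups, 18 of 39 acute and 4 of 16 chronic pairs had deviations that correlated above 0.1. Of hearts with other numbers, 204 of 494 acute and 21 of 80 chronic pairs did. Each p measures the spread between hearts. No pair of hearts of the same group had counts within sampling noise of each other, and pairs across groups were not checked in this way. Positions and transcripts were taken from GENCODE on GRCm38. The fit was tested on simulated counts with 1 fixed spread between hearts, which can differ from that of the real hearts. Of 1.5-fold changes, 95.6% were recovered in acute and 45.8% in chronic Doxo vs. Ctrl, and 23.5% between the studies. Of 2-fold changes, 100%, 97% and 83.8% were recovered. A gene not called in the chronic study or between the studies can thus still differ by 1.5-fold. Only well-counted genes were changed in the simulation, and a gene that varies more between hearts can differ by more without a call. The interval of Tfrc in chronic Doxo vs. Ctrl, for example, reaches past a 2-fold fall. A few genes that the naming rules would give are not reported here.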

Additional observations from a re-analysis of the deposited data

Results flagged for a closer look

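In the chronic study each member was examined in each group, which gave 28 sets of 5 or 6 values. In 8 of the 28 sets a heart was far from the others of its group (Dixon's test at the 95% level). The sets come from the same 17 hearts and are not independent, so 8 of 28 cannot be set against a rate by chance. Doxo replicate 2 was such a heart for 3 members, with Hmox1 at 22.3 CPM (next 6.42), Fth1 at 2756 CPM (next 1385) and Gpx4 at 595 CPM (next 489). Ctrl replicate 1 was such a heart for Ftl1, at 133 CPM (next 88.1), and for Slc40a1, at 8.66 CPM (next 18.5). Hmox1 in Ctrl replicate 4 was lowest at 6.06 CPM, though the next was 6.25 CPM. Gpx4 in Doxo-NMN replicate 6 was 627 CPM (next 522), and Hamp in Doxo-NMN replicate 4 was 0.739 CPM (next 0.0939).

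The response to Doxo differed between the acute and the chronic study, by the difference of the log2 fold changes, for Hmox1 (2.74), Fth1 (1.16), Ftl1 (0.71), Gpx4 (0.59) and Slc40a1 (−0.97). For Doxo-NMN vs. Doxo it differed for Hmox1 (−1.89). Regimen, age, supplier of the mice, sequencing site, time, and the route and dose of NMN changed together with the study and cannot be told apart.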

How the results depend on the processing

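In acute Doxo vs. Ctrl the 10 members kept their direction and side of the threshold in 400 of 400 values with 1 heart left out and 106 of 108 under other settings, Slc11a2 reversing in hearts rich in atrial marker (−0.0075). The 5 members called became 8 without a fold limit and 3 at 2-fold. In Doxo-NMN vs. Doxo 3 became 8 without a fold limit, and 2 to 4 with 1 heart left out, and under other settings 10 of 108 member values lost the call and 3 gained it. In Doxo-NMN vs. Ctrl 1 became 3 without a fold limit, 0 at 2-fold, 2 with these groups alone, and 1 to 3 with 1 heart left out. Tfrc (limma with voom, 0.081), Acsl4 (0.00907 at low and 0.034 at high atrial marker) and Ncoa4 (0.00123 at high) reversed there.

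With the replicate block the counts called were 4, 3 and 1 in the acute and 0 in the chronic comparisons, and Slc11a2 in chronic Doxo-NMN vs. Ctrl reversed to −0.00255. The block lost Hamp in Doxo-NMN vs. Doxo (adjusted p = 0.0544) and Gpx4 in Doxo-NMN vs. Ctrl (adjusted p = 0.0800, edgeR).

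Between the studies 5 members differed for Doxo vs. Ctrl, 3 in hearts of low atrial marker and 3 to 6 with 1 chronic heart or acute Doxo replicate 6 left out. For Doxo-NMN vs. Doxo 1 differed, 0 at low atrial marker and 0 to 2 with 1 of the same hearts left out. Other acute hearts were not left out between the studies. Of the 3 pairs of members, 1 passed at low atrial marker, 1 without Doxo replicate 6 and 4 by Spearman's rho.

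No chronic value passed the threshold under any setting. In Doxo vs. Ctrl, Tfrc (−0.78 to −0.40), Acsl4 (0.25 to 0.34), Gpx4 (−0.23 to −0.053) and Slc11a2 (−0.24 to −0.083) kept their sign with each heart left out. With limma voom, Doxo vs. Ctrl reversed for Hmox1 (−0.094), Fth1 (−0.023) and Ncoa4 (−0.090), Doxo-NMN vs. Doxo for Hmox1 (0.043), Fth1 (0.053) and Slc40a1 (0.033), and Doxo-NMN vs. Ctrl for Ftl1 (0.024) and Slc11a2 (−0.018). With 1 heart left out, log2 fold changes in Doxo vs. Ctrl ran from −0.025 to 0.27 for Fth1, −0.21 to 0.073 for Ftl1, −0.13 to 0.55 for Hmox1, −0.17 to 0.13 for Ncoa4 and −0.23 to 0.016 for Slc40a1. In Doxo-NMN vs. Ctrl they ran from −0.021 to 0.10 for Fth1, −0.12 to 0.12 for Ftl1, −0.16 to 0.018 for Gpx4, −0.073 to 0.051 for Hmox1, −0.14 to 0.16 for Ncoa4, −0.10 to 0.067 for Slc11a2 and −0.24 to 0.027 for Slc40a1. In Doxo-NMN vs. Doxo they ran from −0.24 to 0.080 for Fth1, −0.00105 to 0.17 for Ftl1, −0.56 to 0.11 for Hmox1, −0.045 to 0.12 for Ncoa4, −0.087 to 0.083 for Slc40a1 and −0.080 to 0.29 for Tfrc. The cause of these changes was not tested.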
